A study of Danio rerio with 12 samples.

Results

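The genes described here are the co-chaperones and the cytosolic chaperonin of the zebrafish: 85 rows, of 32057 in the deposited table, whose symbols begin with dnaja, dnajb or dnajc and a digit, cct or bag and a digit, pfdn and a digit, or are tcp1, or begin with hspd1, hspe1, hspa9, stip1, ahsa1, ptges3, chordc1, st13 or cdc37. The rule used names only and no measured value, but it was chosen with earlier results of these data known. The 85 rows carry 84 symbols, because cct2 occurs in 2 rows. All 85 passed the filter on low values (a mean of at least 0.5 FPKM over the 12 libraries), as did 19821 rows of the whole table. Not every one is a co-chaperone in the strict sense: hspd1, hspe1 and hspa9 encode mitochondrial chaperones, and a few J-domain proteins work outside protein folding.

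Chaperones bind unfolded proteins and release them in cycles driven by ATP, and co-chaperones set the pace and the direction of those cycles. J-domain proteins, also called Hsp40 or DnaJ proteins, bring clients to Hsp70 and stimulate its ATP hydrolysis, and BAG proteins then help Hsp70 to exchange its nucleotide. Stip1, Cdc37, p23 and Aha1 act in the Hsp90 cycle that follows, on kinases, steroid receptors and other late-folding clients. The chaperonin CCT, also called TRiC, is a double ring of related subunits that folds actin, tubulin and other cytosolic proteins in its cavity, and prefoldin hands it clients. Methylmercury (MeHg) is an organic mercury compound that binds thiols and is known above all as a poison of the nervous system.

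The samples were whole wild-type zebrafish embryos kept without MeHg or in 6, 30 or 50 µg/L MeHg during the window of 4 to 72 h post-fertilisation. Each of the 4 groups had 3 samples, and the aim of the series was a set of marker transcripts for MeHg toxicity. Poly(A) RNA was sequenced, and no genotype, promoter or vehicle other than these labels is given. Separate clutches or tanks are not named in the labels, so the p-values rest on the spread among these samples, which may be technical. Levels of one gene are given in CPM (counts scaled to the TMM-adjusted library total), levels of different genes in FPKM, which also divides by exonic length, and differences as log2 fold changes ± SE. A gene was called higher or lower where the edgeR quasi-likelihood test gave a Benjamini-Hochberg adjusted p under 0.05 over all 19821 genes.

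The libraries held 15665053 to 22207603 gene counts. Control replicate 3 stood apart from the other controls. Its median Spearman correlation with them was 0.935, the controls' highest such median was 0.967, and within the exposed groups the medians were 0.991 to 0.994. The libraries also tilted by transcript length, measured as log2 deviation from the mean library in the eighth of genes with the longest transcripts, less the same in the shortest. This tilt was -0.087 to 0.193 in the exposed libraries. Among the controls it was -0.693 in replicate 1, -0.531 in replicate 2 and 0.186 in replicate 3. On this measure replicate 3 lay within the range of the exposed libraries and the other controls lay outside it. The co-chaperones and CCT themselves had a median log2 deviation of 0.195 in the first control replicate, 0.124 in the second and -0.198 in the third. Calls against the controls that this library changes are therefore given with and without it. In the fits with control replicate 3 as the only control, that arm is 1 library, chosen because it stood apart. Its spread is taken from the exposed groups, and it is assumed to vary as they do. Which genes pass there is no replicated result. Markers of muscle, epidermis, liver, neurons and cones were all detected, but not at steady levels. All 11 cone markers tested were lower than in controls at every dose. Summed, the cone markers had 2357 to 2951 CPM in the controls and 26.5 to 39.9 CPM at 50 µg/L. Of 17 muscle rows 1 was higher and 12 lower at 50 µg/L. In such whole-embryo RNA fewer cells of a type and less RNA per cell cannot be told apart.

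Together the 85 genes took 0.603 to 0.634% of raw gene counts in the controls, 0.653 to 0.677% at 6 µg/L, 0.667 to 0.681% at 30 µg/L and 0.745 to 0.757% at 50 µg/L. The TMM scaling changes the order at the low end. Summed in CPM, the 85 genes had 5537 to 6741 in the controls, 6127 to 6476 with 6 µg/L, 6803 to 7006 with 30 µg/L and 7600 to 7797 with 50 µg/L. On that scale the controls spanned the range at 6 µg/L. CCT alone took 0.246 to 0.275% in the controls, 0.287 to 0.303% at 6 µg/L, 0.32 to 0.332% at 30 µg/L and 0.353 to 0.364% at 50 µg/L, again of raw counts. Its sums in CPM, given with the subunits, overlap between the controls and 6 µg/L.

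With 6 µg/L 4 of the 85 genes were higher and 5 lower than in controls, against 5.48% of all genes tested higher and 8.88% lower. With 30 µg/L 14 were higher and 15 lower, where the shares over all genes were 13.4% and 17.3%. With 50 µg/L 20 were higher and 15 lower, beside 17.6% and 21.9% of all genes. As shares of the 85 these were 4.71% and 5.88% for 6 µg/L, 16.5% and 17.6% for 30 µg/L, and 23.5% and 17.6% for 50 µg/L, close to the background in each case. Between the doses, 8 were higher and 8 lower at 30 than at 6 µg/L (7.13% and 8.44% of all genes), and 11 were higher and 4 lower at 50 than at 30 µg/L (4.18% and 4.44% of all genes). In that last step 12.9% of the 85 were higher, the widest gap from the background among the 5 comparisons. The median log2 fold change of the 85 genes against controls was -0.07 at 6 µg/L, -0.12 at 30 µg/L and 0.06 at 50 µg/L, beside -0.005, -0.036 and -0.038 over all genes. Counts given below for single roles and lists are to be read beside these shares of all genes. At 50 µg/L the shares were 30.8% higher and 32.1% lower without control replicate 3. They were 9.64% and 12.6% in the fit of controls and 50 µg/L alone.

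The comparisons with control share the same 3 control libraries. In them 41 genes were called at some dose and 44 at none, and 0 were called in opposite directions at different doses. Cct4, stip1 and dnajc2 were higher at every dose, and dnajc5ab, dnajc5ga, dnajc22, dnajc27 and dnajc28 were lower at every dose. With an offset for transcript length stip1 and dnajc2 did not pass at 6 µg/L. In 9 rows all 6 libraries at 30 and 50 µg/L lay above all 6 libraries at 0 and 6 µg/L (both cct2 rows, cct4, cct5, tcp1, cdc37, stip1, dnaja2a and dnajc8), as they did for 6.94% of all genes. In 4 they lay below (dnajb4, dnajb6a, dnajc11b and dnajc5aa), beside 7.63% of all genes. The 50 genes that did not pass the threshold at 50 µg/L had log2 fold changes between -0.51 and 0.60.

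**Figure D1:**
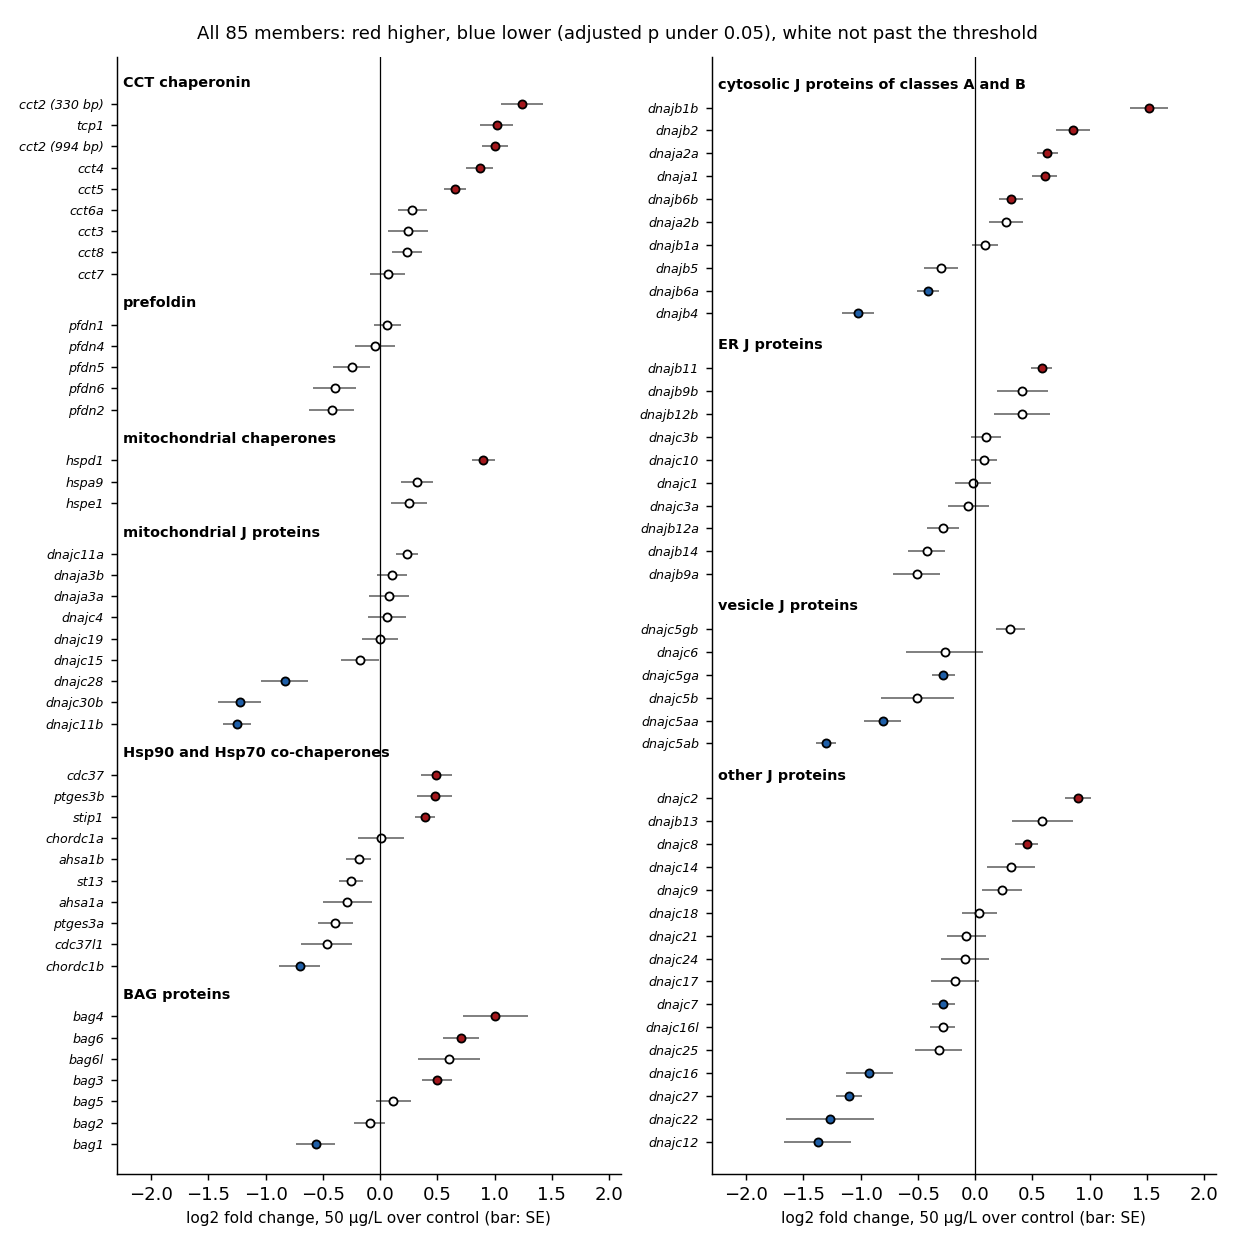
Log2 fold change at 50 µg/L MeHg over control (x axis, bars are SE) for all 85 rows, grouped by role down the page, with red points for the 20 higher, blue for the 15 lower and white for the 50 that did not pass the threshold. The red points gather among the CCT subunits and the cytosolic J proteins, and dnajb1b has the highest value, 1.52.

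Of the chaperonin CCT, transcripts of tcp1, cct2, cct4 and cct5 were higher at 30 and 50 µg/L than in controls, by 0.45 to 0.98 and 0.65 to 1.24 on the log2 scale, while cct3, cct6a, cct7 and cct8 passed the threshold at no dose. In all, 5 of 9 rows were higher at 30 µg/L and 5 of 9 at 50 µg/L, and 0 were lower. At 30 against 6 µg/L 3 of 9 passed (5 in DESeq2, 2 in limma and 7 in the fit of those groups alone). Of all genes 7.13% were higher in that step, 8.95% in DESeq2, 5.22% in limma and 17% with those groups alone. All 9 values there were above 0. The subunits sit side by side in each ring, in equal number, and each is encoded by its own gene.

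Tcp1, the alpha subunit (ENSDARG00000017891, chr23:2421313-2443881 in GRCz11), had 179.8, 209 and 273 CPM in the controls, 226, 247 and 279.8 CPM with 6 µg/L, 424, 449.7 and 413 CPM with 30 µg/L and 428, 449 and 464 CPM with 50 µg/L. Every library at 30 and 50 µg/L lay above every library at the lower doses. The difference from controls was 0.18 ± 0.14 at 6 µg/L, which did not pass, 0.96 ± 0.14 at 30 µg/L (edgeR, adjusted p = 0.00043) and 1.02 ± 0.14 at 50 µg/L (adjusted p = 0.00016). Tcp1 was also higher at 30 than at 6 µg/L (0.77 ± 0.14, adjusted p = 0.0032), and between 50 and 30 µg/L the difference was 0.06 ± 0.14, not past the threshold.

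Cct2, the beta subunit, is split in the table. The row ENSDARG00000104674 (chr4:78022547-78026285, minus strand, 994 exonic bases) had 58.6, 63.5 and 65.1 CPM in the controls, 56.8, 72.2 and 70.5 CPM with 6 µg/L, 102, 114 and 124 CPM with 30 µg/L and 121, 127 and 127 CPM with 50 µg/L. The row ENSDARG00000087206 (chr4:78008298-78009682, plus strand, 330 exonic bases), 12864 bases away, had 7.86, 8.54 and 8.03 CPM in the controls, 7.92, 11.0 and 12.8 CPM with 6 µg/L, 13.1, 15.9 and 19.1 CPM with 30 µg/L and 17.3, 21.1 and 19.5 CPM with 50 µg/L. In both rows the libraries at 30 and 50 µg/L lay above all others, and the changes were 1.00 ± 0.12 and 1.24 ± 0.18 at 50 µg/L (adjusted p = 3.6e-05 and 0.00025). The rows are annotated as the same gene, reads may be divided between them, and they are not independent. Both were also higher at 30 than at 6 µg/L, by 0.77 and 0.60; the smaller row's call there ended when any 1 of 7 of the 12 libraries was left out (0.44 to 0.63).

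Cct4, the delta subunit (ENSDARG00000013475, chr1:53701801-53714885), had 244, 339 and 323 CPM in the controls, 415, 395 and 411 CPM with 6 µg/L, 515, 513 and 496 CPM with 30 µg/L and 548, 541 and 567 CPM with 50 µg/L. The 4 groups followed the dose without overlap. It was the only subunit called at 6 µg/L (0.43 ± 0.12, adjusted p = 0.03), a call that ended when any library at 6 µg/L was left out (0.43 to 0.45), and it was 0.75 ± 0.12 at 30 µg/L and 0.87 ± 0.12 at 50 µg/L (adjusted p = 0.00013). Cct5, the epsilon subunit (ENSDARG00000045399, chr24:16905188-16912897), had 347, 385 and 325 CPM in the controls, 431, 374 and 401 CPM with 6 µg/L, 486, 485 and 471 CPM with 30 µg/L and 559, 532 and 569.9 CPM with 50 µg/L. Its libraries at 30 and 50 µg/L were above all others and its change was 0.45 ± 0.10 at 30 µg/L (adjusted p = 0.0053) and 0.65 ± 0.10 at 50 µg/L (adjusted p = 0.00031).

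**Figure D2:**
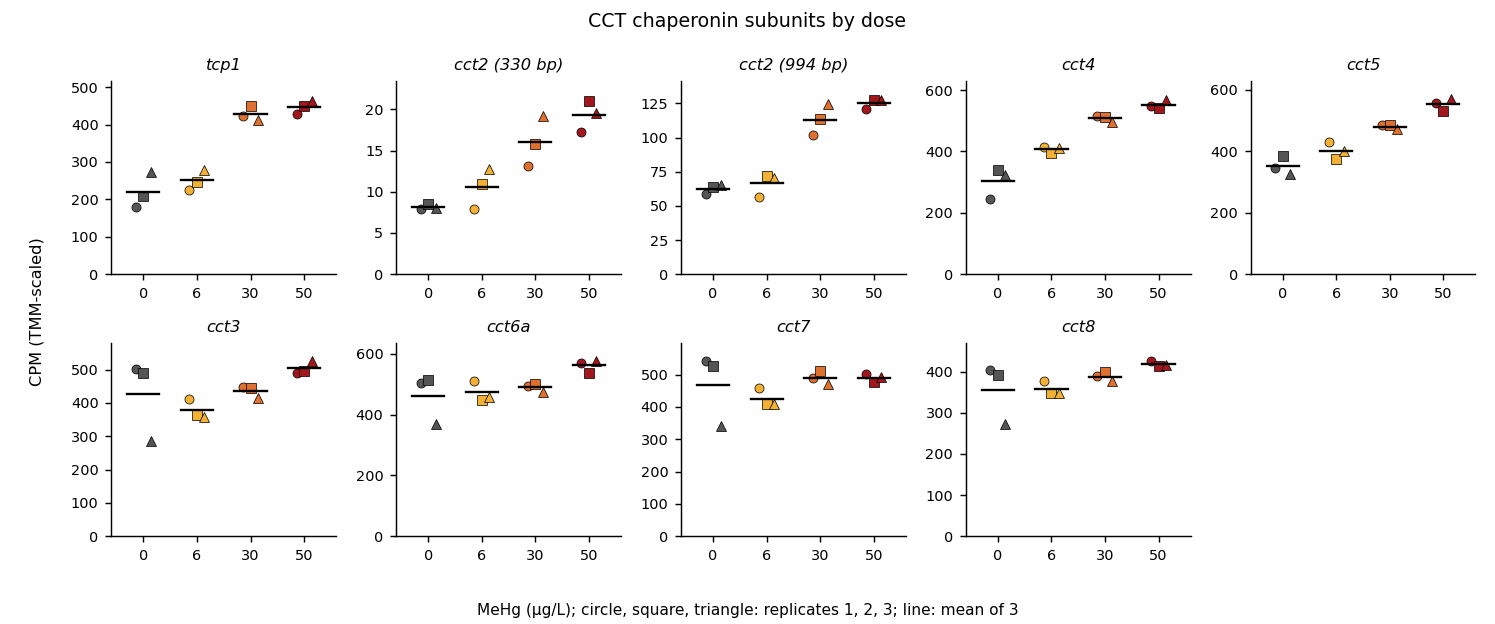
CPM of each CCT row (y axis from 0, its own scale in each panel) against MeHg dose in µg/L, with a symbol for each replicate and a line at the mean of 3. In the upper row of panels the points at 30 and 50 µg/L clear those at 0 and 6 µg/L, and in the lower row control replicate 3 (triangle) lies far below the other controls, at 286 against 501 and 490.1 CPM for cct3.

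For the other subunits the controls themselves were spread widely. Cct3, the gamma subunit, had 501, 490.1 and 286 CPM in the controls, 412, 364 and 358 CPM with 6 µg/L, 446, 444 and 416 CPM with 30 µg/L and 491, 497 and 525 CPM with 50 µg/L. Cct7, the eta subunit, had 543, 525 and 339.8 CPM in the controls, 458, 409 and 408 CPM with 6 µg/L, 489, 513 and 470.5 CPM with 30 µg/L and 501, 478 and 494 CPM with 50 µg/L. In both, control replicate 3 was the lowest of all 12 libraries and the other controls were among the highest. Cct6a, the zeta subunit, had 571, 538 and 578 CPM with 50 µg/L against 504, 514 and 370.5 CPM in controls, and cct8, the theta subunit, 427, 415 and 416 CPM with 50 µg/L against 404, 391 and 272 CPM in controls. All 3 libraries at 50 µg/L were above all controls for these last genes, but the differences (0.28 ± 0.12 and 0.24 ± 0.13) did not pass (adjusted p = 0.089 and 0.17).

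Set against control replicate 3 alone, a fit with 1 control library, all 9 rows had values above 0 at 30 and at 50 µg/L. At 50 µg/L cct3 was then at 0.83, cct6a at 0.61, cct7 at 0.54 and cct8 at 0.63. Without it, the same 4 were 0.02, 0.14, -0.13 and 0.07 and did not pass, 5 rows were higher at both doses, and at 30 µg/L 1 row, cct3, was lower (-0.20). The calls for tcp1, both cct2 rows and cct4 at 30 and 50 µg/L, and for cct5 at 50 µg/L, held under all 23 alternatives. Cct5 at 30 µg/L was lost in the fit of the compared groups only (adjusted p = 0.061).

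Summed over the 9 rows, CCT had 2262 to 2926 CPM in the controls, 2669 to 2894 CPM with 6 µg/L, 3263 to 3435 CPM with 30 µg/L and 3598 to 3760 CPM with 50 µg/L. The sums at the 3 exposed doses did not overlap, while the controls spanned the range at 6 µg/L. Per length and without the cct2 row of 330 exonic bases, cct8 was the lowest at every dose, with 54.6 FPKM in the controls and 64.3 FPKM at 50 µg/L, where cct5 was the highest with 283 FPKM. The ratio of highest to lowest was 3.76 in the controls, 3.78 at 6 µg/L, 4.35 at 30 µg/L and 4.405 at 50 µg/L. The highest was cct7 in the controls, cct4 at 6 and 30 µg/L and cct5 at 50 µg/L. With the short cct2 row kept, a cct2 row was the lowest in every group and the ratio fell with dose. It was then 8.43 in the controls, 6.64 at 6 µg/L, 5.46 at 30 µg/L and 4.97 at 50 µg/L. The direction of this ratio thus depends on that row. Between 50 and 30 µg/L 0 of 9 rows passed in edgeR, 0 had an unadjusted p under 0.05, and DESeq2 and limma also called 0, though 3 passed as higher in a fit of those groups alone. That last fit called 15.1% of all genes higher.

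Cell cycle markers also moved between 6 and 30 µg/L, the step in which tcp1 and both cct2 rows passed. Of 22 rows of replication and mitosis genes, 8 were already higher and 1 lower at 6 µg/L than in controls. At 30 against 6 µg/L 20 were higher and 0 lower, and at 50 against 30 µg/L 0 were higher and 2 lower. Their summed level was 1867 to 2371 CPM in the controls, 2411 to 2457 CPM with 6 µg/L, 4093 to 4191 CPM with 30 µg/L and 4140 to 4335 CPM with 50 µg/L. None of these markers was at 0 in any library. Their part in the CCT result was not tested.

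Prefoldin, the hexamer that carries unfolded actin and tubulin to CCT, had 0 genes called higher in edgeR in any of the 5 comparisons, nor in DESeq2 or limma. In the fit of 30 and 50 µg/L alone 1 was higher at 50 µg/L (2 at an unadjusted p under 0.05). Of its 5 pfdn genes (pfdn1, pfdn2, pfdn4, pfdn5 and pfdn6) 0 passed at 50 µg/L in edgeR, 0 had an unadjusted p under 0.05, and DESeq2 and limma called 0. Pfdn2 (ENSDARG00000025391, chr7:7477398-7493758) was the exception at the middle dose. It had 121, 91.4 and 57.7 CPM in the controls, 99.9, 88.0 and 96.3 CPM with 6 µg/L, 55.2, 53.6 and 49.0 CPM with 30 µg/L and 68.8, 67.6 and 65.2 CPM with 50 µg/L, so the libraries at 30 µg/L lay below all others. Its change was -0.78 ± 0.20 at 30 µg/L (edgeR, adjusted p = 0.011), and against 6 µg/L it was -0.85 ± 0.20 (adjusted p = 0.012). Both pfdn2 calls ended without replicate 3 at 30 µg/L, at -0.73 and -0.80.

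Without control replicate 3, 4 of 5 pfdn genes were lower at 50 µg/L and 4 at 30 µg/L, beside 32.1% and 32.2% of all genes. With it as the only control 1 was higher and 0 lower at 50 µg/L, and pfdn2 at 30 µg/L was -0.12 and did not pass. A wider list of CCT and prefoldin helpers, among them the prefoldin subunit gene vbp1, the phosducin-like protein gene pdcl and the tubulin cofactors, had 0 of 11 higher and 2 lower at 50 µg/L. In that list 0 were higher and 3 lower at an unadjusted p under 0.05, and DESeq2 gave 0 and 2. In the fit of controls and 50 µg/L alone 0 were higher and 1 lower, without control replicate 3 1 and 5, and with it as the only control 2 and 1. The 2 lower were pdrg1 (-0.84 ± 0.17, adjusted p = 0.0026), whose product is a prefoldin-like subunit, and pdcl (-0.39 ± 0.10, adjusted p = 0.01). The pdcl call ended with control replicate 3 as the only control (-0.26) and in the fit of those groups alone (adjusted p = 0.074).

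Of the 3 mitochondrial chaperone genes, hspd1 was higher than in controls at 30 and 50 µg/L, and hspa9 was higher at 50 than at 30 µg/L. Hspd1, the mitochondrial chaperonin Hsp60 (ENSDARG00000056160, chr9:32286605-32300783), had 222, 256 and 253 CPM in the controls, 297, 298 and 276 CPM with 6 µg/L, 311, 276 and 316 CPM with 30 µg/L and 445, 455 and 468 CPM with 50 µg/L. The libraries at 50 µg/L were far above the rest, and those at 30 µg/L were above all controls but overlapped those at 6 µg/L. The change was 0.30 ± 0.10 at 30 µg/L (edgeR, adjusted p = 0.034), 0.90 ± 0.10 at 50 µg/L (adjusted p = 2.4e-05) and 0.60 ± 0.10 between 50 and 30 µg/L (adjusted p = 0.0027). Both calls at 50 µg/L held under all 23 alternatives, and that at 30 µg/L ended when any 1 of 6 of the 12 libraries was left out (0.26 to 0.30).

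Hspe1, the Hsp10 lid of the same chaperonin (ENSDARG00000056167, chr9:32301017-32305007), lies head to head with hspd1, 233 bases away on the opposite strand, and the strand setting of the counting is not given in the sources used here. It had 174, 164 and 104 CPM in the controls, 109.8, 109 and 118 CPM with 6 µg/L, 143, 128 and 126 CPM with 30 µg/L and 179, 169 and 179.7 CPM with 50 µg/L. All libraries at 50 µg/L lay above all libraries at 6 and 30 µg/L but overlapped the controls, of which replicates 1 and 2 were high and replicate 3 was the lowest of all 12. At 50 µg/L the difference from controls was 0.26 ± 0.16 (adjusted p = 0.22), so the pair did not both pass: with control replicate 3 as the only control it was 0.77 and passed, without it 0.05 and did not, and with an offset for transcript length 0.39 (adjusted p = 0.028).

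Hspa9, the mitochondrial Hsp70 that pulls proteins through the inner membrane (ENSDARG00000003035, chr14:12142813-12168897), had 497, 471 and 330.2 CPM in the controls, 425, 399 and 376 CPM with 6 µg/L, 394, 333 and 387 CPM with 30 µg/L and 547, 545 and 534 CPM with 50 µg/L. Here too the libraries at 50 µg/L were above all others, and the change was 0.55 ± 0.14 between 50 and 30 µg/L (adjusted p = 0.031) and 0.32 ± 0.14 against controls (adjusted p = 0.085). The call between doses ended with the length offset and when any 1 of 7 libraries was left out (0.48 to 0.59). Against controls the value was 0.15 without control replicate 3 and 0.72, past the threshold, with it as the only control. Summed, the 3 genes had 687 to 893 CPM in the controls, 769.7 to 833 CPM with 6 µg/L, 737 to 849 CPM with 30 µg/L and 1169 to 1181 CPM with 50 µg/L.

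**Figure D3:**
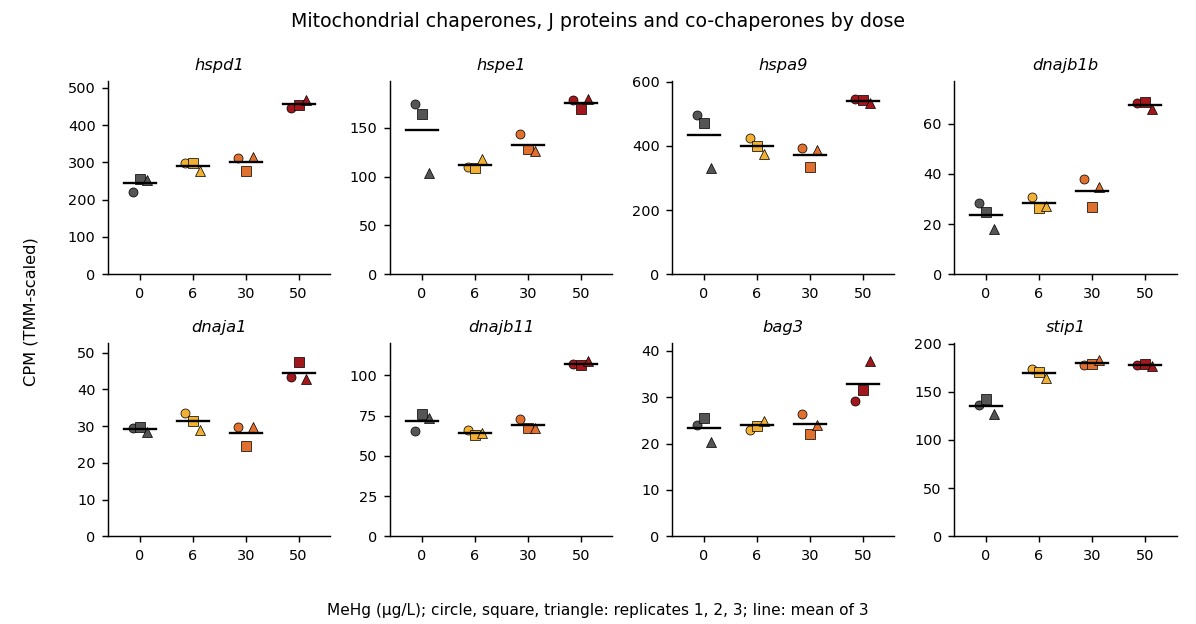
CPM (y axis from 0) against MeHg dose in µg/L for 3 mitochondrial chaperone genes, 3 J protein genes, bag3 and stip1, with a symbol for each replicate and a line at the mean of 3. For hspd1, hspa9, dnajb1b, dnaja1 and dnajb11 the 3 libraries at 50 µg/L lie above all the others, while stip1 is higher at all 3 doses, with 164 to 183 CPM in exposed libraries against 127 to 143 CPM in controls.

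Of 17 other genes of mitochondrial protein quality control 4 were higher and 4 lower at 50 µg/L, beside 17.6% and 21.9% of all genes. The fit of those groups alone gave 2 and 1, beside 9.64% and 12.6% of all genes. That without control replicate 3 gave 5 and 8, beside 30.8% and 32.1%. The matrix protease gene lonp1 averaged 74.5 ± 2.27 CPM with 50 µg/L against 29.9 ± 8.26 CPM in controls (SD, n = 3 each), a change of 1.31 ± 0.17 (edgeR, adjusted p = 0.00011). The inner membrane protease genes yme1l1a and spg7 changed by 0.76 ± 0.14 and -0.63 ± 0.11 (adjusted p = 0.0009 and 0.00083). Clpxa, for the unfolding partner of the ClpP protease, changed by -0.38 ± 0.09 (adjusted p = 0.0069, and 0.058 in the fit of those groups alone). For lonp1, leaving out control replicate 3 gave 1.56, and using it alone gave 0.93.

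Of the 9 J protein genes assigned to mitochondria, 0 were higher and 3 lower at 50 µg/L, where 1 was higher and 3 lower at an unadjusted p under 0.05 and DESeq2 called 1 and 3. Dnajc11b (ENSDARG00000102696, chr11:41110397-41132296), whose human counterpart is bound to the complex that shapes the inner membrane, had 25.1, 23.3 and 28.4 CPM in the controls, 24.2, 24.2 and 24.3 CPM with 6 µg/L, 13.7, 16.1 and 13.1 CPM with 30 µg/L and 11.5, 9.75 and 11.0 CPM with 50 µg/L. All libraries at 30 and 50 µg/L lay below all others, with changes of -0.84 ± 0.12 at 30 µg/L and -1.25 ± 0.12 at 50 µg/L (edgeR, adjusted p = 0.00036 and 1.2e-05), calls that held under all 23 alternatives. Its paralog dnajc11a did not pass (0.23 ± 0.09 at 50 µg/L).

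Dnajc30b (ENSDARG00000079415, chr15:2589949-2596125), singled out after its values were seen, had 4.00, 4.07 and 3.48 CPM in the controls, 3.18, 3.04 and 3.73 CPM with 6 µg/L, 3.75, 4.04 and 4.09 CPM with 30 µg/L and 1.92, 1.39 and 1.59 CPM with 50 µg/L. The 3 highest-dose libraries were below all 9 others, a change of -1.23 ± 0.18 from controls and of -1.27 ± 0.18 from 30 µg/L (adjusted p = 0.00029 and 0.0012), again under all 23 alternatives. Dnajc28 (ENSDARG00000018181, chr9:35872698-35875051) had 7.53, 6.10 and 4.77 CPM in the controls, 4.40, 3.45 and 3.30 CPM with 6 µg/L, 3.85, 3.75 and 3.54 CPM with 30 µg/L and 3.24, 4.12 and 2.92 CPM with 50 µg/L. It was lower at all 3 doses (-0.71, -0.72 and -0.83 at 6, 30 and 50 µg/L), without overlap with the controls. However, 8 of the 12 single-library omissions ended the call at 6 µg/L (-0.71 to -0.53) and 4 that at 30 µg/L (-0.71 to -0.53). Without control replicate 3 these were -0.88, -0.88 and -0.995, and with it as the only control -0.35, -0.35 and -0.47 and none passed.

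The import motor genes dnajc15 and dnajc19, dnaja3a, dnajc4 and dnajc11a passed in no comparison, with values of -0.17 to 0.23 at 50 µg/L, and dnaja3b passed between 50 and 30 µg/L only (0.46 ± 0.13), a call that 10 of the 12 single-library omissions ended (0.42 to 0.51).

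Among the co-chaperones that bind Hsp90 or Hsp70 directly, 3 of 10 were higher and 1 lower at 50 µg/L. Stip1, the adaptor Hop that joins Hsp70 to Hsp90 (ENSDARG00000004906, chr5:66807179-66823794), had 137, 143 and 127 CPM in the controls, 174, 170.3 and 164 CPM with 6 µg/L, 178, 179 and 183 CPM with 30 µg/L and 178, 179 and 177 CPM with 50 µg/L. Every exposed library lay above every control, and the 3 doses differed little: 0.32 ± 0.08 at 6 µg/L, 0.41 ± 0.08 at 30 µg/L and 0.39 ± 0.08 at 50 µg/L (edgeR, adjusted p = 0.026, 0.0039 and 0.0033). Cdc37, which brings kinases to Hsp90 (ENSDARG00000099301, chr1:59007536-59014053), had 28.2, 38.4 and 43.9 CPM in the controls, 38.6, 38.4 and 42.4 CPM with 6 µg/L, 54.4, 55.7 and 50.8 CPM with 30 µg/L and 51.3, 52.3 and 51.7 CPM with 50 µg/L. It was higher by 0.54 ± 0.14 at 30 µg/L and 0.49 ± 0.14 at 50 µg/L (adjusted p = 0.011 and 0.013). The libraries at those doses lay above all others. Both calls held in all 12 single-library omissions, at 0.40 to 0.67 and 0.36 to 0.62. Of the cdc37 controls, replicate 3 was the highest, at 43.9 CPM, and lay nearest the libraries at 30 and 50 µg/L. The difference was thus smaller against it than against the other controls.

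The paralogs of p23, which holds Hsp90 in its closed form, parted. Ptges3b (ENSDARG00000089626, chr23:6736116-6749820) had 122, 115 and 73.8 CPM in the controls, 99.95, 82.7 and 92.6 CPM with 6 µg/L, 115, 109 and 112 CPM with 30 µg/L and 151, 142 and 138 CPM with 50 µg/L, a change of 0.48 ± 0.16 at 50 µg/L (adjusted p = 0.029). Ptges3a (ENSDARG00000037284, chr23:27051919-27059998) had 118, 106 and 71.2 CPM in the controls, 83.4, 72.3 and 80.1 CPM with 6 µg/L, 73.2, 72.5 and 70.7 CPM with 30 µg/L and 80.3, 70.5 and 74.1 CPM with 50 µg/L, a change of -0.45 ± 0.15 at 30 µg/L (adjusted p = 0.043) and of -0.39 ± 0.15, not past, at 50 µg/L. For ptges3b the libraries at 50 µg/L were above all others, while the ptges3a values in exposed libraries overlapped control replicate 3. The ptges3a call held in 6 of 23 alternatives and turned to 0.035 with control replicate 3 as the only control, and the ptges3b call ended when any library at 50 µg/L was left out (0.44 to 0.52).

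Chordc1b, which encodes an Hsp90-binding zinc protein (ENSDARG00000017067, chr10:25204626-25213025), had 53.4, 48.6 and 29.9 CPM in the controls, 34.7, 28.9 and 30.4 CPM with 6 µg/L, 33.9, 30.3 and 29.2 CPM with 30 µg/L and 28.3, 24.8 and 27.9 CPM with 50 µg/L. All libraries at 50 µg/L were below all controls (-0.70 ± 0.18, adjusted p = 0.0086), with -0.92 without control replicate 3 and -0.14, not past, with it as the only control. Its paralog chordc1a had 9.45, 9.46 and 7.74 CPM with 50 µg/L and 11.5, 8.94 and 6.20 CPM in controls, with overlap.

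The Aha1 genes, whose products speed up the Hsp90 ATPase, did not pass: ahsa1a had 25.2, 27.4 and 25.4 CPM with 50 µg/L and 36.9, 39.7 and 18.6 CPM in controls, and ahsa1b 47.3, 48.4 and 46.9 CPM with 50 µg/L and 59.0, 57.5 and 45.8 CPM in controls. In both genes control replicate 3 lay below the other controls. St13, the Hsp70-binding protein Hip, had 88.3, 83.4 and 84.9 CPM with 50 µg/L and 108, 112 and 86.4 CPM in controls (-0.25 ± 0.11, adjusted p = 0.077), and cdc37l1 had 5.61, 6.50 and 4.66 CPM with 50 µg/L and 8.54, 9.71 and 4.99 CPM in controls. Neither passed at any dose. Without control replicate 3, 3 of the 10 were higher and 6 lower at 50 µg/L, and 4 higher and 0 lower with it as the only control. In the fit of controls and 50 µg/L alone 0 passed, with 3 higher and 1 lower at an unadjusted p under 0.05. In that of controls and 30 µg/L alone 0 passed, stip1 and cdc37 included, with 2 higher and 0 lower at an unadjusted p under 0.05.

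The Hsp70, Hsp110 and Hsp90 genes that these co-chaperones serve were higher at 50 µg/L in 11 of 16 and lower in 1, and 10 of 16 were higher and 0 lower at 50 than at 30 µg/L. Against controls it was 10 and 1 in the fit of those groups alone, 11 and 1 without control replicate 3, and 13 and 1 with it as the only control. Hsp90aa1.2 averaged 566 ± 12.3 CPM with 50 µg/L against 102 ± 7.01 CPM in controls (2.47 ± 0.15, adjusted p = 3e-07), and hspa4a, an Hsp110-type exchange factor, 302 ± 7.06 CPM with 50 µg/L against 73.9 ± 20.8 CPM in controls (2.03 ± 0.17, SD over n = 3 in each group, edgeR). Hspa8b and hsp70.3 were higher by 3.13 ± 0.26 and 3.13 ± 0.29. The hsp70 genes are close copies, so their reads may be divided among them. The median over the 16 was 1.29 at 50 µg/L, against 0.06 over the 85 co-chaperone and CCT genes. A list of 22 other Hsp90 and Hsp70 co-chaperones had 5 higher and 8 lower at 50 µg/L, led by the immunophilin genes fkbp5 (-1.25 ± 0.11, adjusted p = 6.3e-06) and fkbp4 (0.78 ± 0.09, adjusted p = 3e-05), by sgtb (-1.26) and by fkbp8 (-0.57). The counts were 1 and 3 in the fit of controls and 50 µg/L alone, 6 and 14 without control replicate 3, and 9 and 4 with it as the only control.

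Heat shock factors and small heat shock proteins were higher in 5 and lower in 3 of 13 tested at 50 µg/L. Hsf1 and hsf2, which encode heat shock transcription factors, changed by 0.94 ± 0.24 and 0.48 ± 0.11 (edgeR, adjusted p = 0.0076 and 0.0038), and the small heat shock protein genes hspb15 and hspb2 by -1.43 ± 0.21 and -0.85 ± 0.23 (adjusted p = 0.00022 and 0.01). In the fit of controls and 50 µg/L alone 1 was higher and 2 lower, and hsf1 did not pass (adjusted p = 0.056). Without control replicate 3 the counts were 5 and 3, and with it as the only control 5 and 1. For hsf1, leaving out that library gave 1.41 and using it alone gave 0.33. For hspb2 these were -1.07 and -0.28, the second not past.

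At 50 µg/L 3 of the 7 BAG genes were higher and 1 was lower. In the fit of controls and 50 µg/L alone 1 was higher, bag6, and 0 were lower, beside 9.64% and 12.6% of all genes. Bag1, bag3 and bag4 did not pass in that fit, which had 3 higher and 1 lower at an unadjusted p under 0.05. Bag3, a partner of Hsp70 in selective autophagy and a known heat shock gene (ENSDARG00000039486, chr13:25486608-25498661), had 23.9, 25.5 and 20.3 CPM in the controls, 23.0, 23.8 and 24.9 CPM with 6 µg/L, 26.5, 22.0 and 24.1 CPM with 30 µg/L and 29.2, 31.5 and 37.7 CPM with 50 µg/L. All libraries at 50 µg/L were above all others (0.50 ± 0.13, edgeR, adjusted p = 0.0092), a call that ended without replicate 3 at 50 µg/L (0.38). Bag6, which guards exposed hydrophobic segments (ENSDARG00000075892, chr15:34618360-34668485), had 26.9, 25 and 30.1 CPM in the controls, 29.8, 44.8 and 34.1 CPM with 6 µg/L, 36.3, 43.9 and 48.4 CPM with 30 µg/L and 39.7, 46.5 and 47.6 CPM with 50 µg/L. It was higher by 0.65 ± 0.16 at 30 µg/L and 0.70 ± 0.16 at 50 µg/L (adjusted p = 0.0096 and 0.0043), under all 23 alternatives, and the exposed libraries at 6 µg/L ranged from within the controls to the upper levels.

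Bag4, which in mammals silences death-domain receptors (ENSDARG00000043179, chr8:44599405-44611357), had 4.81, 8.13 and 15.3 CPM in the controls, 18.7, 18.1 and 21.0 CPM with 6 µg/L, 13.8, 14.2 and 14.6 CPM with 30 µg/L and 20.0, 16.5 and 21.0 CPM with 50 µg/L. The controls spread widely, with replicate 3 the highest, and the change was 1.01 ± 0.29 at 6 µg/L and 1.01 ± 0.29 at 50 µg/L (adjusted p = 0.035 and 0.015). With replicate 3 as the only control they were 0.34 and 0.34 and did not pass, and without it 1.53 and 1.53. The call at 50 µg/L ended without control replicate 2 (0.92) or replicate 3 at that dose (0.94).

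Bag1, which links Hsp70 to the proteasome (ENSDARG00000020895, chr2:30904069-30908300), had 43.0, 41.7 and 24.8 CPM in the controls, 28.9, 25.5 and 28.0 CPM with 6 µg/L, 24.5, 26.6 and 24.3 CPM with 30 µg/L and 25.1, 24.0 and 25.1 CPM with 50 µg/L. The exposed libraries overlapped control replicate 3 and lay below the other controls. The change was -0.54 ± 0.17 at 30 µg/L and -0.56 ± 0.17 at 50 µg/L (adjusted p = 0.031 and 0.021), -0.77 and -0.79 without control replicate 3, and 0.034 and 0.004 with it as the only control, where the sign turned. Bag2 was lower at 30 than at 6 µg/L (-0.64 ± 0.14, adjusted p = 0.0083), and bag5 and bag6l passed in no comparison.

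The cytosolic J proteins of classes A and B held the largest higher call of all 85 genes. At 50 µg/L 5 of 10 were higher and 2 lower, and between 50 and 30 µg/L 4 were higher and 0 lower. Dnajb1b, the heat-inducible Hsp40 (ENSDARG00000041394, chr1:55745878-55750208), had 28.4, 24.7 and 18.0 CPM in the controls, 30.9, 26.6 and 27.2 CPM with 6 µg/L, 37.8, 26.6 and 35.0 CPM with 30 µg/L and 68.4, 68.9 and 65.8 CPM with 50 µg/L. The libraries at 50 µg/L were well above all others, and the change was 1.52 ± 0.17 from controls and 1.03 ± 0.16 from 30 µg/L (edgeR, adjusted p = 2.7e-05 and 0.0023), under all 23 alternatives. At 30 µg/L it was 0.49 ± 0.17 (adjusted p = 0.041), which 7 of the 12 single-library omissions ended (0.38 to 0.54).

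Dnaja1, a general Hsp70 partner, had 29.6, 29.7 and 28.4 CPM in the controls, 33.7, 31.5 and 28.9 CPM with 6 µg/L, 29.7, 24.6 and 29.8 CPM with 30 µg/L and 43.5, 47.6 and 42.8 CPM with 50 µg/L. It was called at 50 µg/L, not at 6 or 30 µg/L (0.61 ± 0.11 from controls and 0.67 ± 0.11 from 30 µg/L, adjusted p = 0.00091 and 0.0024). Dnaja2a was higher from 30 µg/L, with 176, 204 and 206 CPM in the controls, 206, 209 and 206 CPM with 6 µg/L, 265, 248 and 249.5 CPM with 30 µg/L and 301, 300.5 and 305 CPM with 50 µg/L (0.38 ± 0.09 at 30 and 0.63 ± 0.09 at 50 µg/L). Dnajb2, a J protein with ubiquitin-binding motifs, was higher at 50 µg/L by 0.86 ± 0.15 (adjusted p = 0.00093). The 50 µg/L calls for dnaja1, dnaja2a and dnajb2, named to account for every call, held under all 23 alternatives. In the fit of controls and 30 µg/L alone 0 of the 10 cytosolic genes were higher, beside 4.95% of all genes. Dnaja2a, dnaja2b and dnajb1b thus did not pass at 30 µg/L in that fit, where 3 were higher at an unadjusted p under 0.05.

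Dnajb4, a class B relative of dnajb1 (ENSDARG00000038978, chr2:9552456-9560307), went the other way. It had 15.9, 19.3 and 14.4 CPM in the controls, 14.3, 13.5 and 16.4 CPM with 6 µg/L, 9.39, 8.42 and 9.37 CPM with 30 µg/L and 8.35, 7.54 and 8.504 CPM with 50 µg/L. All libraries at 30 and 50 µg/L were below all others, with changes of -0.86 ± 0.14 and -1.02 ± 0.14 (adjusted p = 0.00076 and 0.00014) and -0.70 ± 0.14 between 30 and 6 µg/L, under all 23 alternatives. The paralogs of dnajb6, which restrains protein aggregation, were split at 50 µg/L: dnajb6a by -0.41 ± 0.10 and dnajb6b by 0.31 ± 0.10 (edgeR, adjusted p = 0.0049 and 0.031). Neither passed in the fit of controls and 50 µg/L alone, where 4 of the 10 cytosolic genes were higher and 1 lower.

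Dnajb1a, the paralog of dnajb1b, was lower at 30 µg/L (-0.41 ± 0.12, adjusted p = 0.02) and near the controls at 50 µg/L (0.09). Dnaja2b was higher at 30 µg/L (0.50 ± 0.15), with 0.70 without control replicate 3 and 0.15, not past, with it as the only control. Dnajb5 passed in no comparison.

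In the endoplasmic reticulum 1 of 10 J protein genes was higher at 50 µg/L and 0 lower, where 1 was higher and 2 lower at an unadjusted p under 0.05 and DESeq2 called 1 and 0. The higher one was dnajb11, ERdj3, a partner of the ER Hsp70 BiP (ENSDARG00000015088, chr9:32641026-32648725), with 65.6, 76.0 and 73.8 CPM in the controls, 65.8, 63.2 and 64.2 CPM with 6 µg/L, 73.0, 67.3 and 67.4 CPM with 30 µg/L and 107, 107 and 109 CPM with 50 µg/L. The libraries at 50 µg/L stood clear of all others (0.58 ± 0.09 from controls and 0.63 ± 0.09 from 30 µg/L, edgeR, adjusted p = 0.00036 and 0.0011), under all 23 alternatives. Dnajb14, an ER membrane J protein (ENSDARG00000069996, chr1:27867706-27894817), had 19.1, 18.1 and 13.3 CPM in the controls, 17.2, 12.2 and 14.1 CPM with 6 µg/L, 9.25, 9.57 and 10.3 CPM with 30 µg/L and 11.8, 13.5 and 12.4 CPM with 50 µg/L. It was lowest at 30 µg/L, below all controls (-0.79 ± 0.16, adjusted p = 0.0035; -0.44, not past, with control replicate 3 as the only control).

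Dnajc3b, of the p58IPK type, was higher at 30 than at 6 µg/L (0.45 ± 0.13, adjusted p = 0.041). That call ended in 9 of the 12 single-library omissions (0.37 to 0.53). Dnajb9a, dnajb9b, dnajb12a, dnajb12b, dnajc1, dnajc3a and dnajc10 passed in no comparison, with -0.51 to 0.41 at 50 µg/L. Without control replicate 3 the 10 genes had 2 higher and 4 lower at 50 µg/L, and with it as the only control 5 higher and 0 lower. At 50 µg/L 5 of 18 genes on a wider ER list were higher and 1 was lower. Most encode chaperones, but ddit3, xbp1 and sec61a1 on that list do not. The counts were 1 and 1 in the fit of controls and 50 µg/L alone, 5 and 8 without control replicate 3, and 10 and 1 with it as the only control. The lectin chaperone gene canx changed by 1.11 ± 0.24, calr by -0.78 ± 0.14, sec63 by 0.32 ± 0.08 and hyou1 by 0.38 ± 0.11 (edgeR, adjusted p = 0.0035, 0.00084, 0.0095 and 0.018). Sec63 and hyou1 did not pass in the fit of those groups alone (adjusted p = 0.09 and 0.098). For canx, leaving out control replicate 3 gave 1.56 and using it alone gave 0.495. For calr these were -0.95 and -0.38. All 4 values passed the threshold.

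Vesicle J protein genes were lower where they passed against controls, with 0 of 6 higher and 3 lower at 50 µg/L (1 higher and 3 lower at an unadjusted p under 0.05, and 1 and 3 in DESeq2), and 0 higher and 4 lower at 30 µg/L. With only the compared groups fitted, 0 were higher and 2 lower at 50 µg/L. For 30 µg/L that fit called 0 in either direction, with 0 higher and 3 lower at an unadjusted p under 0.05. Dnajc5ab, a cysteine string protein of the kind that guards synaptic vesicle proteins (ENSDARG00000004836, chr23:17472702-17509656), had 199, 175 and 196 CPM in the controls, 133.7, 127 and 124 CPM with 6 µg/L, 143, 149 and 141 CPM with 30 µg/L and 76.1, 77.6 and 77.6 CPM with 50 µg/L. No exposed library overlapped the controls, and those at 50 µg/L lay below all others. The changes were -0.56 ± 0.09 at 6 µg/L, -0.40 ± 0.09 at 30 µg/L and -1.30 ± 0.09 at 50 µg/L (edgeR, adjusted p = 0.0015, 0.0053 and 7.4e-07), and -0.90 ± 0.09 between 50 and 30 µg/L (adjusted p = 7.2e-05).

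Its paralog dnajc5aa had 19.5, 22.1 and 31.9 CPM in the controls, 21.2, 24.6 and 24.2 CPM with 6 µg/L, 16.3, 17.1 and 15.8 CPM with 30 µg/L and 14.8, 14.3 and 12.9 CPM with 50 µg/L. It was lower at 30 and 50 µg/L (-0.58 ± 0.16 and -0.81 ± 0.16, adjusted p = 0.018 and 0.0022). The first call ended without any 1 library of that dose (-0.597 to -0.56). Dnajc5ga was lower at all 3 doses (-0.35, -0.33 and -0.28). Of the 12 single-library omissions, 7 ended the call at 6 µg/L (-0.38 to -0.28), 3 that at 30 µg/L (-0.31 to -0.26) and 9 that at 50 µg/L (-0.30 to -0.20). Dnajc5gb was lower at 30 µg/L (-0.37, held in 7 of 23 alternatives) and higher at 50 than at 30 µg/L (0.68 ± 0.13, adjusted p = 0.0065). Dnajc5b and the clathrin-uncoating auxilin gene dnajc6 passed in no comparison.

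Of 10 neuron markers 0 were higher and 1 lower at 6 µg/L, where their median log2 fold change was 0.022. At 30 µg/L 0 were higher and 4 lower, and at 50 µg/L 1 was higher and 5 lower. Without control replicate 3, 5 of these markers were higher and 5 lower at 50 µg/L. Their summed level was 1629 to 2345 CPM in the controls, 1879 to 2032 CPM with 6 µg/L, 1656 to 1692 CPM with 30 µg/L and 1367 to 1434 CPM with 50 µg/L, and none was at 0 in any library. The synaptic gene snap25a changed by -0.93 ± 0.09 at 50 µg/L. By mean CPM nefma, nefmb, elavl3 and elavl4 were higher there than in controls, and the rest of the 10 were lower. Nefma averaged 66.2 ± 1.58 CPM with 50 µg/L against 34.3 ± 19.6 CPM in controls (SD, n = 3 each). The part of these 10 markers in the dnajc5 results was not tested.

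**Figure D4:**
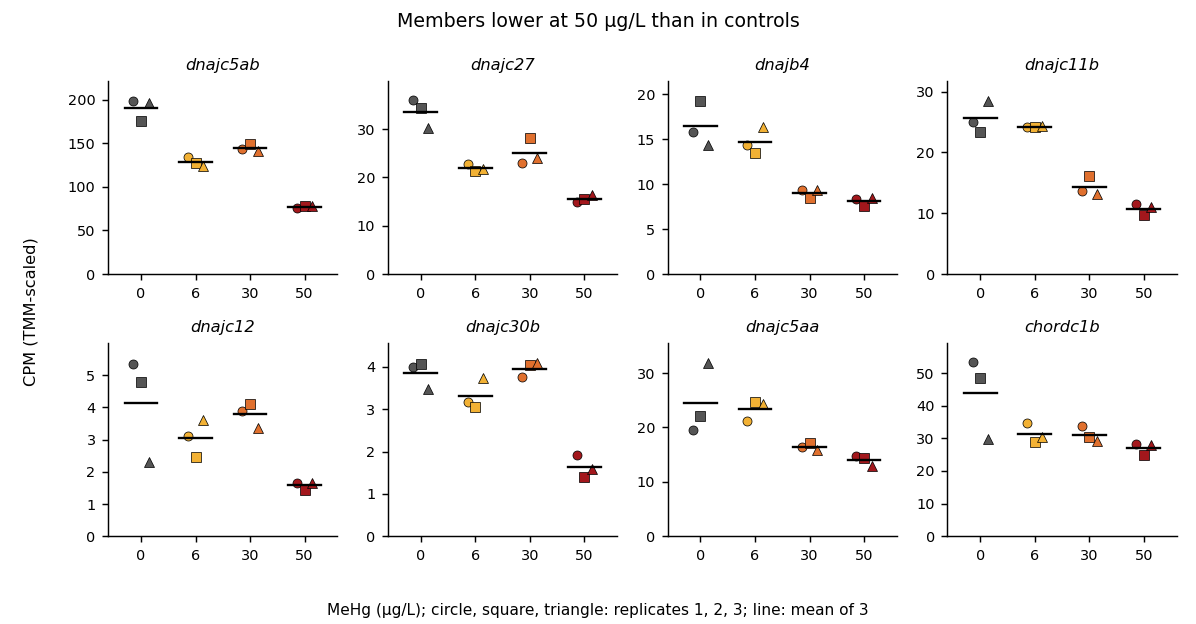
CPM (y axis from 0) against MeHg dose in µg/L for 8 genes that were lower at 50 µg/L than in controls, with a symbol for each replicate and a line at the mean of 3. Dnajc5ab and dnajc27 are already lower at 6 µg/L, dnajb4 and dnajc11b from 30 µg/L, and dnajc12 and dnajc30b at 50 µg/L, with 1.45 to 1.65 CPM and 1.39 to 1.92 CPM there.

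The other J proteins are a mixed group, with 2 of 16 higher and 5 lower at 50 µg/L. Dnajc2, which works at the ribosome exit as zuotin does in yeast (ENSDARG00000070477, chr4:1766333-1785120), had 19.5, 20.9 and 26.2 CPM in the controls, 30.4, 30.7 and 31.9 CPM with 6 µg/L, 28.8, 30.0 and 28.7 CPM with 30 µg/L and 41.4, 42.4 and 40.7 CPM with 50 µg/L. Every exposed library lay above every control. The change was 0.48 ± 0.11 at 6 µg/L, 0.39 ± 0.11 at 30 µg/L and 0.90 ± 0.11 at 50 µg/L (edgeR, adjusted p = 0.015, 0.021 and 7.3e-05), and only the last held under all 23 alternatives. Of the others, 3 of the 12 single-library omissions ended the call at 6 µg/L (0.45 to 0.49) and 5 that at 30 µg/L (0.33 to 0.41). Dnajc8, a spliceosome component, had 30.4, 35.7 and 35.6 CPM in the controls, 31.6, 35.9 and 36.6 CPM with 6 µg/L, 47.6, 49.8 and 47.0 CPM with 30 µg/L and 46.7, 45.5 and 47.0 CPM with 50 µg/L, and was higher by 0.51 ± 0.10 at 30 and 0.45 ± 0.10 at 50 µg/L. It and the histone chaperone gene dnajc9 (0.56 ± 0.17) were higher at 30 than at 6 µg/L. The dnajc9 call ended in 9 of the 12 single-library omissions (0.52 to 0.599).

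Dnajc27, which encodes a Rab-like GTPase with a J domain (ENSDARG00000070916, chr17:33296436-33309689), had 35.9, 34.4 and 30.3 CPM in the controls, 22.8, 21.2 and 21.7 CPM with 6 µg/L, 22.9, 28.2 and 24.1 CPM with 30 µg/L and 14.9, 15.6 and 16.3 CPM with 50 µg/L. It was lower at all 3 doses (-0.61 ± 0.11, -0.42 ± 0.11 and -1.10 ± 0.11, adjusted p = 0.004, 0.014 and 1.6e-05), with no overlap with the controls. Leaving out any 1 of 4 libraries ended the call at 30 µg/L (-0.39 to -0.35). Dnajc12, a partner of the aromatic amino acid hydroxylases (ENSDARG00000086691, chr13:50368668-50373021), had 5.36, 4.78 and 2.32 CPM in the controls, 3.12, 2.45 and 3.604 CPM with 6 µg/L, 3.90, 4.09 and 3.35 CPM with 30 µg/L and 1.65, 1.45 and 1.64 CPM with 50 µg/L. The libraries at 50 µg/L were below all others, a change of -1.37 ± 0.29 from controls and -1.25 ± 0.29 from 30 µg/L (adjusted p = 0.003 and 0.019). The second call ended with any 1 of 5 libraries left out (-1.28 to -1.18). Against controls it was -1.68 without control replicate 3 and -0.54, not past, with it as the only control.

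Dnajc22 (ENSDARG00000037067, chr23:27696694-27702561), whose fly counterpart acts in clathrin-mediated uptake, was scarce, with 3.66, 2.49 and 1.60 CPM in the controls, 0.502, 0.862 and 0.366 CPM with 6 µg/L, 0.845, 0.807 and 0.689 CPM with 30 µg/L and 0.549, 1.22 and 1.38 CPM with 50 µg/L. It had the largest fold change of the 85 genes at 6 µg/L (-2.09 ± 0.41, adjusted p = 0.0061) and at 30 µg/L (-1.70 ± 0.40, adjusted p = 0.0072), and -1.27 ± 0.39 at 50 µg/L (adjusted p = 0.02). All exposed libraries were below all controls. The call at 50 µg/L ended without control replicate 1 (-0.92) or replicate 1 at 50 µg/L (-0.96), and against control replicate 3 alone the values at 6, 30 and 50 µg/L were -1.40, -1.02 and -0.60, of which the first passed. Of 9 liver markers 0 were higher and 3 lower at 6 µg/L, and 1 was higher and 5 lower at 50 µg/L, where 3 were higher and 3 lower with control replicate 3 as the only control. They summed to 4399 to 7854 CPM in the controls, 3701 to 4465 CPM with 6 µg/L, 3354 to 3692 CPM with 30 µg/L and 3776 to 3942 CPM with 50 µg/L, and 1 further liver marker, too low to be tested, was at 0 in at least 1 library. Their part in the dnajc22 result was not tested.

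The remaining lower calls at 50 µg/L were dnajc16 (-0.92 ± 0.21, adjusted p = 0.0041) and dnajc7, a chaperone adaptor (-0.28 ± 0.10, adjusted p = 0.045), which held in 7 of 23 alternatives. Dnajc14 was higher at 50 than at 30 µg/L (0.77 ± 0.21), a call that 8 of the 12 single-library omissions ended (0.699 to 0.88), and dnajc16l lower at 30 than at 6 µg/L (-0.51 ± 0.11). Dnajb13, a radial spoke protein of cilia and the scarcest of the 85 genes (0.758 FPKM over all libraries), did not pass (0.59 ± 0.27), nor did dnajc17, dnajc18, dnajc21, dnajc24 or dnajc25 in any comparison.

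The calls between doses not yet given were at 30 against 6 µg/L for cdc37 (0.43), dnaja2a (0.29), dnajc8 (0.47), dnajb1a (-0.40), dnajb6a (-0.31), dnajb14 (-0.57) and dnajc11b (-0.76). Of the 12 single-library omissions, 10 ended the call for cdc37 (0.398 to 0.48), 9 for dnaja2a (0.27 to 0.31), 8 for dnajb1a (-0.43 to -0.33), 10 for dnajb6a (-0.36 to -0.25), 5 for dnajb14 (-0.62 to -0.44) and 0 for dnajc8 and dnajc11b. At 50 against 30 µg/L they were dnajb1a (0.49), dnajb2 (0.54), dnajc2 (0.51) and dnajc27 (-0.69). There 5 omissions ended the call for dnajb1a (0.44 to 0.53), 10 for dnajb2 (0.48 to 0.63), 4 for dnajc2 (0.495 to 0.51) and 0 for dnajc27. Each call was refitted with 1 library left out in turn, and 3 of 9 at 6 µg/L, 16 of 29 at 30 µg/L, 27 of 35 at 50 µg/L, 7 of 16 between 30 and 6 µg/L and 8 of 15 between 50 and 30 µg/L held in every such fit. Beside the losses already given, bag4 at 6 µg/L was lost in 11 of the 12 fits (0.72 to 1.06) and stip1 at 6 µg/L without any library of that dose (0.31 to 0.35). At 30 µg/L bag1 was lost in 6 (-0.56 to -0.39), dnaja2b in 5 (0.36 to 0.54) and dnajb1a in 3 (-0.40 to -0.34). At 50 µg/L bag1 was lost without control replicate 1 or 2 or any library of that dose (-0.57 to -0.40), and dnajb6b without control replicate 2 or replicate 1 or 3 at that dose (0.24 to 0.32).

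Counts of calls against the controls changed with the control libraries used. All 9 calls at 6 µg/L, all 29 at 30 µg/L and all 35 at 50 µg/L also passed without control replicate 3, and more genes did then: 16 higher and 30 lower at 6 µg/L, 20 and 37 with 30 µg/L, 26 and 30 with 50 µg/L. Over all genes the shares called higher and lower were also larger in that fit, at 28.6% and 27.9% for 6 µg/L, 29.7% and 32.2% for 30 µg/L, and 30.8% and 32.1% for 50 µg/L. Passing in that fit is therefore no independent support for a call. With control replicate 3 as the only control, so with 1 library assumed to vary like the exposed groups, 6 of the 9, 18 of the 29 and 26 of the 35 still passed, and the counts were 15 higher and 7 lower at 6 µg/L, 25 and 11 with 30 µg/L, 35 and 10 with 50 µg/L, beside 12.2% and 12.6%, 17.5% and 17.7%, and 21.6% and 23.1% of all genes. In fits of the compared groups alone, 0 of 9, 10 of 29 and 23 of 35 still passed. For 6 µg/L that fit had 6 higher and 5 lower at an unadjusted p under 0.05, while in the fit of all groups DESeq2 called 8 and 6 and limma 10 and 4. The 16 calls between 30 and 6 µg/L and the 15 between 50 and 30 µg/L compare no control, but the controls enter the spread of the shared fit. All passed without control replicate 3, where more of all genes passed too (17.8% and 18.3%, and 12.6% and 12.3%). Without control replicate 2, cdc37 and dnajb6a were lost between 30 and 6 µg/L. Dnaja3b, dnajb2 and dnajc14 were then lost between 50 and 30 µg/L.

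**Figure D5:**
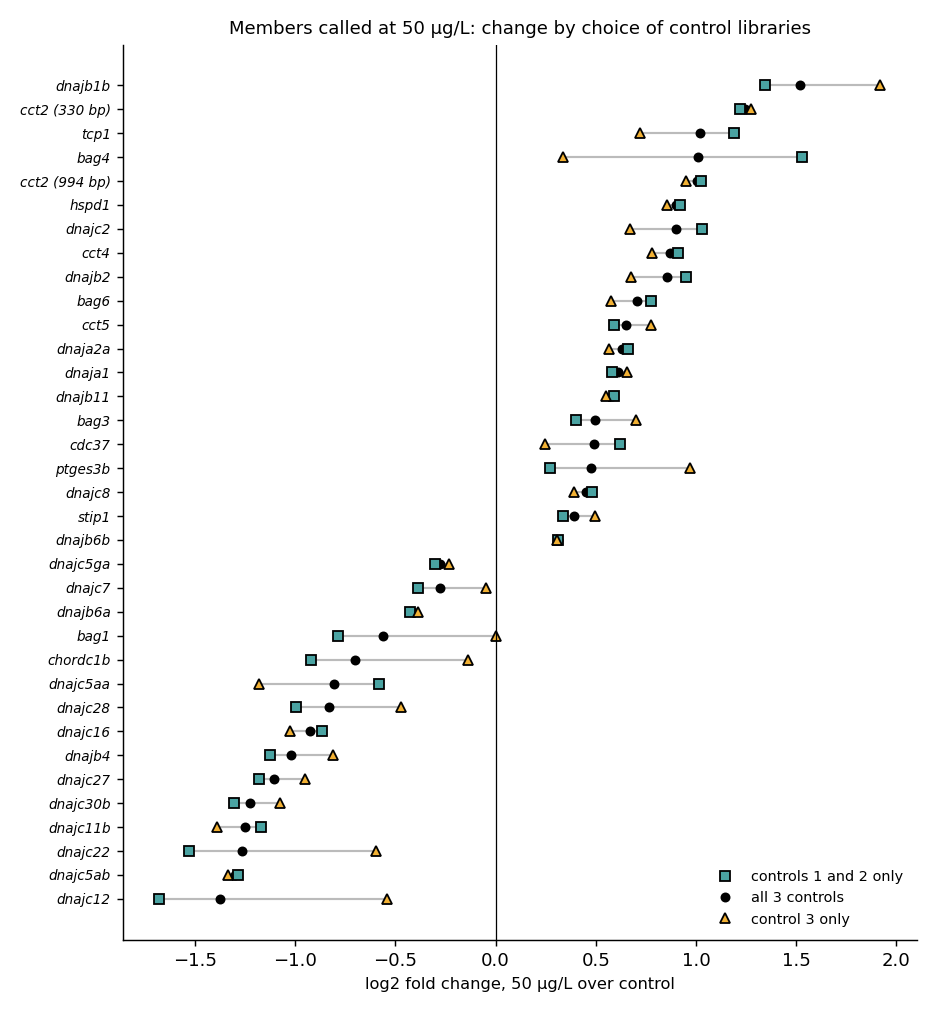
Log2 fold change at 50 µg/L over control (x axis) for the 35 rows called there, with squares for controls 1 and 2 only, circles for all 3 controls and triangles for control replicate 3 only. The triangle for bag1 sits at 0, those for chordc1b, dnajc7, dnajc12 and dnajc22 lie nearer 0 than the circles, and those for ptges3b and dnajb1b lie farther out.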

How the data were processed

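Poly(A) RNA of 12 whole-embryo samples was sequenced. The deposited table holds raw counts per gene and, beside them, FPKM values that the authors computed, which equal count per exonic length and library total within 0.005. HISAT2 2.0.1, HTSeq 0.6.1, cutadapt 1.9.1 and FastQC 0.10.1 are named with DESeq2 and the build GRCz11, per the submitters' processing notes. The strand option and the annotation release were not given in those sources, and reads of overlapping or antisense genes cannot be told apart.

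Counts of the 19821 genes whose mean FPKM reached 0.5 were scaled by TMM and tested, two-sided, with the quasi-likelihood F test of edgeR 4.0.16 in R 4.3.3, over all 12 libraries in 1 fit of 4 groups, with Benjamini-Hochberg adjustment over all genes and a threshold of 0.05. Each fold change (log2) divided by the root of F gave its SE. The alternatives were DESeq2 1.42.0, limma 3.58.1 on log2(FPKM + 1), other scalings and filters, the compared groups only, an offset for transcript length, a replicate block, control replicate 3 as the only control (1 library, assumed to vary like the other groups), and leaving out each library.

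The members and lists were chosen with earlier results of these data known. Values in every library are given for most CCT, mitochondrial chaperone and Hsp90 or Hsp70 co-chaperone genes. For cct6a, cct8, chordc1a, ahsa1a, ahsa1b, st13 and cdc37l1 only the libraries of the controls and of 50 µg/L are given. BAG genes called against control are also given in every library. So are the dnaj and pfdn genes with the 6 smallest p at 50 µg/L or the 4 largest called changes at each dose. Other members were named after their values were seen, so that every call is accounted for.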

Additional observations from a re-analysis of the deposited data

How the results depend on the processing

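Counts of the 85 genes called depended most on the controls and on which groups entered the fit. Shares of all genes changed with the groups fitted as well. Fitting 6 and 30 µg/L alone called 17% of all genes higher and 17% lower, and fitting 30 and 50 µg/L alone 15.1% and 14.6%. Fits of controls with one dose called 0.626% and 2.13% (6 µg/L), 4.95% and 6.73% (30 µg/L), and 9.64% and 12.6% (50 µg/L). Member counts from such fits are to be read beside these shares. With only the compared groups fitted, the counts higher and lower were 0 and 0 at 6 µg/L, 6 and 4 at 30 µg/L, and 17 and 16 between 30 and 6 µg/L and 24 and 10 between 50 and 30 µg/L, and 9 were lower at 50 µg/L. Against control replicate 3 alone, the number higher was 15 at 6 µg/L, 25 at 30 µg/L and 35 at 50 µg/L, and the counts were 18 and 18 between 30 and 6 µg/L and 22 and 10 between 50 and 30 µg/L. At 6 µg/L DESeq2 called 8 higher, limma 10 higher, library totals 7 higher and 3 lower, and the fit without a filter on low values 3 lower. Between 30 and 6 µg/L library totals gave 2 higher and 17 lower, and limma 4 higher and 17 lower; library totals moved the median of all genes there to -0.133 (log2), where the 85 genes had -0.107. Limma gave 23 lower at 30 µg/L. Leaving out 1 library in turn gave 0 to 16 higher and 3 to 30 lower at 6 µg/L, 10 to 20 and 8 to 37 at 30 µg/L, 16 to 26 and 11 to 30 at 50 µg/L, 3 to 17 and 4 to 16 between 30 and 6 µg/L, and 5 to 22 and 3 to 9 between 50 and 30 µg/L. In every comparison the highest of these counts came without control replicate 3. The shares of all genes called were also highest in that fit, at 17.8% and 18.3% between 30 and 6 µg/L, for example. The cause was not tested.

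With control replicate 3 as the only control 3 calls turned their sign: bag1 at 30 µg/L (0.034) and at 50 µg/L (0.004), and ptges3a at 30 µg/L (0.035). Of the 35 calls at 50 µg/L 21 held under every alternative run, as did 8 of 29 at 30 µg/L, 0 of 9 at 6 µg/L, 6 of 16 between 30 and 6 µg/L and 8 of 15 between 50 and 30 µg/L. With the length offset 7 of 9 calls at 6 µg/L, 24 of 29 at 30 µg/L and 34 of 35 at 50 µg/L held. Between doses it kept 12 of 16 (30 and 6 µg/L) and 14 of 15 (50 and 30 µg/L). Deviations of same-numbered libraries correlated at -0.256 to 0.35 (median 0.048, 8 of 18 pairs over 0.1; all 6 pairs of replicates 1 above 0), those of different-numbered ones at -0.395 to 0.312 (median -0.028, 4 of 36 over 0.1). Not every same-numbered pair was over 0.1, so the numbers were not taken as pairing in the main fit. That rule is strict and does not show that the libraries were unpaired. With a replicate block the counts higher and lower were 5 and 5 at 6 µg/L, 15 and 15 at 30 µg/L, 20 and 14 at 50 µg/L, 7 and 6 between 30 and 6 µg/L and 10 and 4 between 50 and 30 µg/L. The block with a length offset gave 5 lower between 30 and 6 µg/L. Depth limits dnajb13, dnajc5b, dnajc22 and other genes near 1 CPM.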
